A study of Mus musculus with 2 samples.

Results

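Among the fibroblasts of the mouse uterus, a small set was chosen by its counts of Scube1 and A2m, and its gene expression is described here in a library from control mice and a library from mice labelled as a Prickle1 knockout. A cell counted as a fibroblast if Pdgfra, Dcn and Lum together gave at least 3 unique molecular identifiers (UMIs, each standing for 1 captured RNA molecule) and if it held no UMI of Ptprc (all leukocytes) or Epcam (epithelium). It was a member if Scube1 and A2m together gave at least 3 UMIs and more than each of 3 other sets of genes, which were Frzb, Ngfr and Nog, then Ptx3, Has2 and Cxcl5, then Pi16, Pcolce2 and C1qtnf3. Of 7076 cells in all, 2257 were gated fibroblasts and 140 of those were members.

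Both libraries came from whole uteri of C57BL/6J females aged 6 months, minced and digested with collagenase and DNase I for 5 hours, and each library was a pool of 3 mice. The control group was labelled Prickle1 f/f, so its Prickle1 alleles are floxed too. The other group was labelled Prickle1 f/f MiC, and the design text calls it cKO, which commonly abbreviates conditional knockout. Prickle1 belongs to the planar cell polarity pathway, and the series' title places its loss in the myometrium, the muscle wall. What MiC means and in which cells it acts is not stated, and a genotype entry of wild-type stands beside both groups.

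Uterine fibroblasts fill the endometrial stroma beneath the epithelium, where they respond to oestrogen and progesterone, and also lie between the muscle bundles and around vessels. Scube1 encodes a secreted and membrane-bound glycoprotein with CUB and EGF-like domains. A2m encodes alpha-2-macroglobulin, a secreted protein that traps proteases of many classes. Thy1, a membrane-anchored glycoprotein, and Col18a1, a basement membrane collagen whose end fragment is endostatin, were given as further markers of the set and were not used to choose it. In the mm10 build, which is GRCm38, the GENCODE vM21 annotation places the Scube1 gene at chr15:83604999-83725021 on the minus strand and the A2m gene at chr6:121635376-121679227 on the plus strand.

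With 1 library per group there is no replicate error and no test. Levels are counts per 1000000 (CPM) of the UMIs summed over a set of cells, ratios are log2 ratios after 20 CPM were added to both sides, and a gene is called higher or lower when that ratio reached 2-fold. The added 20 CPM make the ratio of a low gene smaller than its true size. Intervals are 95% and exact, and they cover counting error only, not the difference between mice or preparations. The libraries held 3490 cells (control) and 3586 cells (cKO), with medians of 4953 and 4903 UMIs per cell. Among them 6 cell barcodes occurred in both libraries, of which 0 were members. Prickle1 had 5.15 CPM in the other gated fibroblasts of the library labelled control and 8.20 CPM in those of the library labelled cKO, so these cells showed no lower level under the cKO label. A read at the 3-prime end of a gene may lie outside a deleted part, and the labels do not say which part is floxed, so this value does not check the label. Members had 36 Prickle1 UMIs in the library labelled cKO, or 12.5 CPM, and 0 in the library labelled control, where the floor of 3 UMIs is worth 38.3 CPM. For these reasons the groups are called the library labelled control and the library labelled cKO.

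The members came almost wholly from the library labelled cKO. They made up 134 of 1364 gated fibroblasts there, or 9.82% (8.30% to 11.5%, Clopper-Pearson), and 3.74% of all cells. The library labelled control had 6 of 893 gated fibroblasts as members, or 0.672% (0.247% to 1.46%), and 0.172% of all cells. The intervals do not overlap, but with 1 pool per group the difference cannot be told apart from a difference between the pools or their digestion. Members were also deeper than other fibroblasts, with medians of 18046 UMIs in the library labelled cKO and 13088.5 in the library labelled control, against 9116.5 and 8489 in the other gated fibroblasts. A minimum of 3 UMIs favours deep cells, so the shares were recomputed after every cell had been thinned to 2000 UMIs. They then were 1.98% in the library labelled cKO and 0.268% in the library labelled control, from 23 and 2 member cells.

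The counts that chose the cells are a description of the choice and not a finding. The sum of Scube1 and A2m ran from 3 to 186 UMIs in the library labelled cKO, with a median of 12. Both genes were seen in 81 of the 134 members, Scube1 without A2m in 47 and A2m without Scube1 in 6. It ran from 3 to 15 UMIs in the library labelled control, with both genes in 3 of the 6 members and Scube1 without A2m in the other 3. A further 38 gated cells of the library labelled cKO and 7 of the library labelled control reached 3 UMIs but had more of another set, and 7 and 0 were tied.

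**Figure D1:**
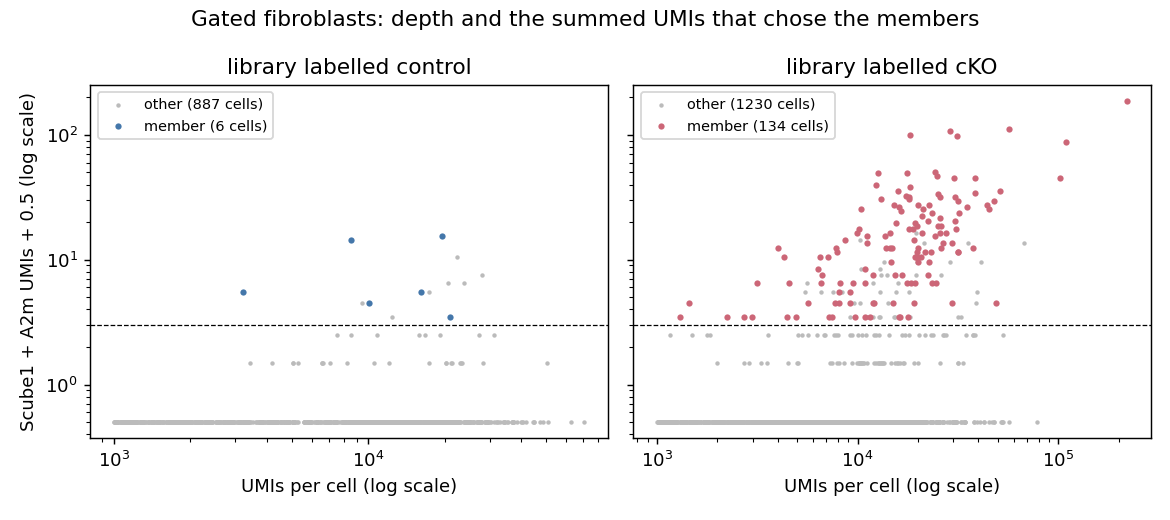
Total UMIs per cell (horizontal, log scale) against the summed Scube1 and A2m UMIs plus 0.5 (vertical, log scale) for each gated fibroblast of the library labelled control (left) and cKO (right). Coloured points are the 6 and 134 members, grey points the other 887 and 1230 cells, and the dashed line separates sums of 2 and 3. Grey points above the line had at least as many UMIs of another set.

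Cells on either side of the minimum were compared in genes the rule did not use, in the library labelled cKO. The 14 members with a sum of 3 had 622 CPM of Aldh1a2, 233 of Wnt5a and 138 of Thy1, and the 79 members with a sum above 10 had 901, 499 and 278. The 9 gated cells just outside, with a sum of 2 that was still larger than the other sets, had 399 CPM of Aldh1a2, 177 of Wnt5a and 44.3 of Thy1. Those values rest on 27, 12 and 3 UMIs. Srgn had the same order, at 813 CPM in the cells with a sum of 2, 847 in those with 3 and 1673 above 10. Col18a1 and Cyp26b1 had no such order, at 310, 112 and 310 CPM and at 207, 449 and 289 CPM. Neither had Ramp2, at 103, 34.6 and 337 CPM. These 3 groups differed in depth, with medians of 5272 UMIs (sum of 2), 7370.5 UMIs (sum of 3) and 21721 UMIs (above 10). The values near the minimum are given with no test.

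Of 6 fibroblast markers, Pdgfra, Dcn and Lum were the gate itself and say nothing more about the members' type. The other 3 are collagen genes. Col1a1 was seen in 100% of the members of both libraries, Col1a2 in 98.5% (cKO) and 100% (control) and Col3a1 in 94.8% and 100%. Col1a2 had 2449 CPM in members and 1248 CPM in the other gated fibroblasts of the library labelled cKO, and 1046 and 1723 CPM in the library labelled control. Dcn, a small proteoglycan that the gate used, stood at 1495 CPM in members and 6434 in the others of the library labelled cKO, and at 3379 and 5853 in the library labelled control. Lum, a related proteoglycan of collagen fibrils, stood at 202 against 1525 CPM and at 485 against 1737. Pdgfra, a receptor kinase of fibroblasts, was closer, at 463 against 683 CPM in the library labelled cKO and 842 against 694 in the library labelled control. At least 3 of the 4 named markers (Scube1, A2m, Thy1, Col18a1) were seen in 96 of the 134 members and in 3 of the 6.

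Markers of other cell types were at or below the level of other fibroblasts for most lists. Among cells of the library labelled cKO the 5 epithelial markers summed to 2.09 CPM in members (24.8 in the others), the 5 macrophage markers to 3.48 CPM (19.7), the 5 T or NK cell markers to 1.39 CPM (2.76), the 5 Schwann markers to 2.09 CPM (2.30) and the 5 pericyte markers to 16.7 CPM (34.1). Sox10 (Schwann), Adgre1 (macrophage), Cd3e and Nkg7 (T or NK cell), Tnmd and Scx (tendon) and Upk3b and Msln (mesothelium) were at 0 UMIs there. Wt1, also on the mesothelium list, was seen in 70.1% of those members, at 83.1 CPM against 101 in the others. In the library labelled control Wt1 was higher in members, at 230 against 99.1 CPM, and the mesothelium list summed to 230 against 142 CPM. The vascular endothelial list summed to 34.4 CPM (83.3 in the others) with 0 markers at 0, and to 0 CPM (53.7) in the library labelled control. Cdh5, on that list, was higher in members of the library labelled cKO, at 27.5 against 10.1 CPM, and was seen in 28.4% of them. The smooth muscle list summed to 484 CPM in members and 541 in the others, and 5 of 134 members had at least 3 of its 5 markers. Most of it was Des, an intermediate filament gene, at 468 CPM. The library labelled control gave 816 and 698 CPM for the smooth muscle list, with Myh11 and Actg2 at 0 in members. A list of granulosa or theca genes of the ovary summed to 261 CPM in members and 61.6 in the others of the library labelled cKO. Foxl2, a forkhead factor also made in uterine stroma, gave 257 CPM of that, while Cyp17a1, Fshr and Amh were at 0. The perineurial list summed to 152 CPM in members against 83.9, with Lypd2 at 0, and Itga6, an integrin of many cell types, gave 133 CPM of it. A decidual list summed to 362 CPM against 138, and 22 of 134 members had at least 3 of its 5 genes, with Prl8a2 at 0.

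Members also had a larger part of their UMIs on mitochondrial genes. The median was 4.32% in members of the library labelled cKO against 1.45% to 2.53% in the other classes, and 3.40% against 1.40% to 2.26% in the library labelled control. Its part in the comparisons below was not tested. No doublet caller was run, so doublets were not removed, and 3 members of the library labelled cKO had 101876 UMIs or more, far above the median of 18046. Without those 3 cells 822 genes were called in the comparison below, against 835 with them.

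The library labelled cKO gives the fuller view of what else the members express. Of 8044 genes counted there, with the 16 genes of the rule left out, 365 were higher (4.54%) and 470 lower (5.84%) in members than in the other 1230 gated fibroblasts, and the median log2 ratio was 0.02. Because the members were chosen from these same cells, these counts describe the set and are not evidence for it. The 15 genes with the highest ratios were higher by at least 2-fold against each of the 3 other classes taken alone, and the 15 with the lowest were lower against each. Over all genes counted, 3.84% were higher and 4.94% lower against the Frzb, Ngfr and Nog class, 6.47% and 6.52% against the Ptx3, Has2 and Cxcl5 class, and 5.87% and 8.18% against the Pi16, Pcolce2 and C1qtnf3 class.

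Crispld2, which encodes a secreted protein with LCCL domains, stood at 1505 CPM in members and 146 CPM in the others, and at 510 and 116 CPM in the library labelled control. Its log2 ratios were 3.20 and 1.96. Srgn, the core protein of the proteoglycan serglycin, stood at 1476 against 156 CPM and, in the library labelled control, 931 against 41.4 CPM. Srgn is also abundant in leukocytes, and in free RNA of empty droplets it stood at 523 CPM in the library labelled cKO. After thinning to 2000 UMIs it was seen in 75.8% of cells with Ptprc and in 80.3% of members, against 11.96% of other fibroblasts. In members of the library labelled cKO 1 of the 5 macrophage markers (Adgre1) and 4 of the 5 T or NK cell markers were at 0 UMIs. The gate had already left out cells with a Ptprc UMI, and the source of the Srgn RNA was not tested. Crispld2 and Srgn were higher in members in both libraries.

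Ramp2, a partner of the receptor for adrenomedullin, had 293 CPM in members and 17.2 CPM in the others of the library labelled cKO, and 306 and 13.8 CPM in the library labelled control. Nrg2, a neuregulin ligand of ErbB receptors, had 192 and 5.21 CPM, and 63.7 and 2.00 CPM. P2ry14, a receptor for UDP-sugars, had 691 and 86.3 CPM, and 485 and 46.6 CPM. In all 3 genes the members lay above the others in each library, and the log2 ratios ran from 2.74 to 3.08 in the library labelled cKO and from 1.93 to 3.27 in the library labelled control. The Nrg2 value of the library labelled control rests on 5 UMIs, each worth 12.8 CPM.

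Wnt5a, a Wnt ligand that also acts through the planar cell polarity pathway, stood at 455 CPM in members and 49.5 CPM in the others, and at 523 and 26.8 CPM in the library labelled control. It was seen in 114 of 134 members, and after thinning in 47.7% of members, 6.30% of other fibroblasts and 0.161% of cells with Ptprc. Cxcl14, a chemokine, stood at 329 and 30.7 CPM, and at 140 and 10.3 CPM. Igfbp4, a binding protein for insulin-like growth factors, stood at 1192 and 178 CPM, and at 1122 and 92.1 CPM. Summed over cells, these secreted signals were higher in members of both libraries by log2 ratios of 2.40 or more. The 6 control members were uneven in Wnt5a, at 2, 0, 2, 10, 20 and 7 UMIs in order of rising depth.

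Dio2, the deiodinase that makes active thyroid hormone, had 1357 CPM in members and 189 CPM in the others, and 676 and 82.9 CPM in the library labelled control. Aldh1a2, which makes retinoic acid, had 842 and 113 CPM, and 1033 and 38.4 CPM, for log2 ratios of 2.69 and 4.17. Scd2, a fatty acid desaturase, had 1021 and 148 CPM, and 191 and 56.5 CPM. Atp8a1, a lipid flippase, had 451 and 57.0 CPM, and 293 and 14.7 CPM. Summed over cells, each was higher in members of both libraries, with Scd2 at the smallest log2 ratio in the library labelled control (1.47). The 6 control members were uneven in Aldh1a2, at 5, 0, 11, 24, 33 and 8 UMIs in order of rising depth. Those with 11, 24 and 33 were the cells with the high interferon sums described below.

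Cyp26b1, which breaks retinoic acid down, behaved otherwise between the libraries. It had 278 CPM in members of the library labelled cKO and 16.8 CPM in the others, but it was uneven, seen in 55 of 134 members and with a highest cell of 5107 CPM. The 6 members of the library labelled control had 0 UMIs and the others 10.1 CPM in the others. The retinoid list of 10 counted genes held 4 higher (Cyp26b1, Aldh1a2, Crabp1 and Stra6) and 2 lower (Rdh10 and Aldh1a3), with a median log2 ratio of 0.37. Thus genes for making, binding, taking up and degrading retinoids were among those higher.

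Thy1 and Col18a1, the further markers of the set, were higher in members where the cells were many. Thy1 had 264 CPM in members and 31.4 CPM in the others of the library labelled cKO. The library labelled control gave 25.5 and 8.94 CPM, from 2 UMIs, so its log2 ratios were 2.47 and 0.65 and the second has an interval of the plain ratio from -1.56 to 3.41. Col18a1 had 285 and 29.8 CPM, and 76.5 and 19.9 CPM from 6 UMIs, for log2 ratios of 2.62 and 1.28. Neither marker was in every member, with Thy1 seen in 88 and Col18a1 in 107 of 134. Tuba1a, an alpha-tubulin, completed the 15 highest, at 564 and 62.0 CPM and, in the library labelled control, 268 and 52.4 CPM.

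**Figure D2:**
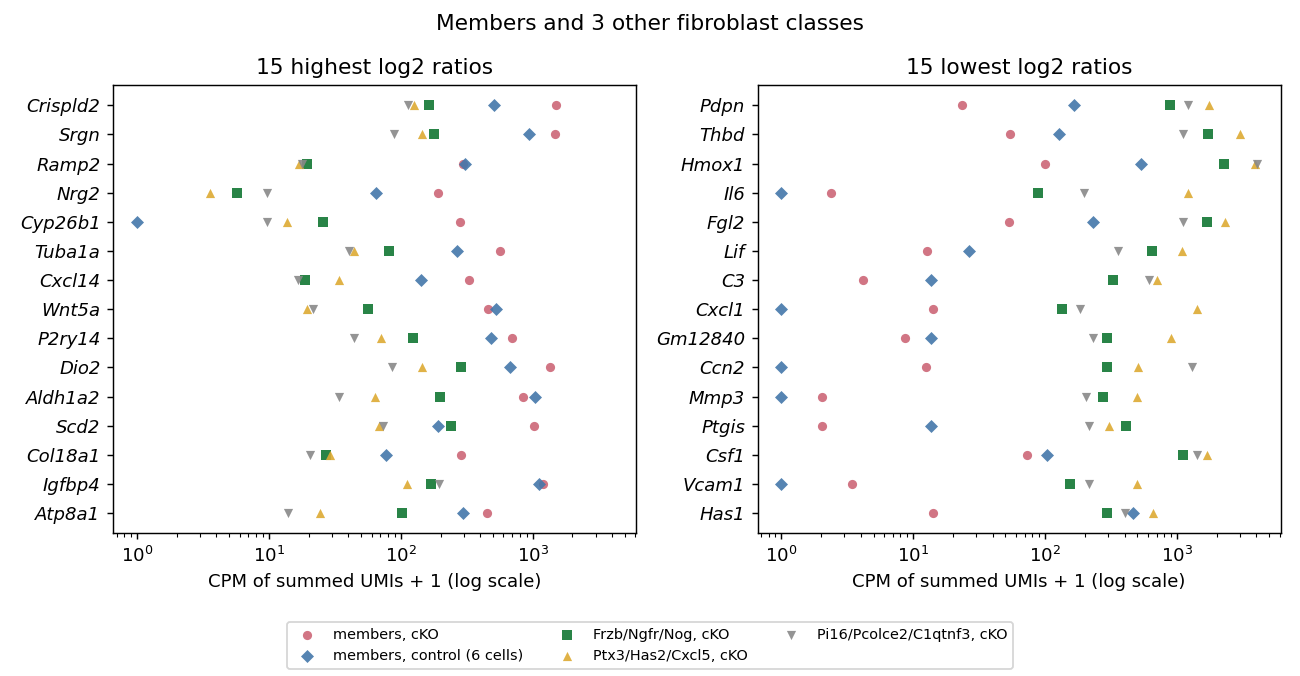
CPM plus 1 (log scale) of the 15 genes with the highest (left) and lowest (right) log2 ratio of members over other gated fibroblasts in the library labelled cKO. Circles are the 134 members of the library labelled cKO, diamonds the 6 members of the library labelled control, and the other symbols the 3 other classes of the library labelled cKO. The circles lie right of the 3 other classes in each gene on the left and left of them in each gene on the right. The diamonds do the same except in Cyp26b1, Scd2 and Has1.

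The 15 lowest genes were led by Pdpn, podoplanin, a mucin-like membrane glycoprotein of fibroblasts and lymphatic vessels. It stood at 22.6 CPM in members and 1211 CPM in the others, and at 166 and 1087 CPM in the library labelled control. Thbd, the thrombin receptor thrombomodulin, stood at 52.9 and 1976 CPM, and at 127 and 1464 CPM. Hmox1, which degrades haem, stood at 98.8 and 3175 CPM, and at 536 and 2426 CPM. The members were thus lower in both libraries, and their log2 ratios ran from -4.85 to -4.75 and from -3.33 to -2.14.

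Il6, an inflammatory cytokine, had 4 UMIs in all 134 members (1.39 CPM against 547 CPM) and 0 in the 6. Lif, a cytokine that embryo implantation needs, had 11.8 against 716 CPM, and 25.5 against 492 CPM. C3, the central complement protein, had 3.13 against 511 CPM, and 12.7 against 348 CPM. Cxcl1, a neutrophil chemokine, had 13.2 against 665 CPM, and 0 UMIs against 540 CPM, which is at least 14.1-fold lower at the floor of 3 UMIs over the group. Csf1, the macrophage growth factor, had 72.4 against 1272 CPM, and 102 against 1253 CPM. These 5 genes were lower in the members of both libraries.

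The other lowest genes were Fgl2, Gm12840, Ccn2, Mmp3, Ptgis, Vcam1 and Has1. Mmp3, the protease stromelysin 1, had 3 UMIs in the 134 members against 334 CPM in the others, and 0 in the 6 against 853 CPM, at least 22.3-fold lower. Vcam1, an adhesion molecule for leukocytes, had 2.44 against 292 CPM and, in the library labelled control, 0 UMIs against 345 CPM, at least 9.03-fold lower. Has1, a hyaluronan synthase, was the exception, at 13.2 against 442 CPM in the library labelled cKO but 459 against 236 CPM in the library labelled control. Of its 36 UMIs there, 35 came from 2 of the 6 cells, and in the 17 control cells of cluster 7, described below, it was lower than outside, at 160 against 240 CPM (log2 ratio -0.53). Fgl2, Ccn2 and Ptgis were lower in members of both libraries, with log2 ratios between -4.57 and -3.92 in the library labelled cKO.

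The same comparison in the library labelled control is coarse, since 6 cells with 78430 UMIs make 1 UMI worth 12.8 CPM. Those cells were not alike. The control member with 14 Scube1 UMIs had 0 UMIs of Aldh1a2, Wnt5a, Thy1 and Col18a1. Of 7705 genes counted there, 738 were higher (9.58%) and 1004 lower (13%), with a median log2 ratio of 0.00. Of the 318 genes higher in the library labelled cKO and counted in both, 273 had the same sign in the library labelled control, 134 were past 2-fold the same way and 9 past 2-fold the other way. Of the 456 lower genes, 374 had the same sign, 247 were past 2-fold the same way and 21 the other way. The libraries share no cells, but the same rule and the same deeper cells stand behind both comparisons.

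The endometrial stroma list held more higher than lower genes. Of 16 counted genes in that list, 8 were higher (Wnt5a, Wnt4, Hand2, Hsd11b2, Hoxa11, Igf1, Hoxa10 and Esr1) and 2 lower (Vcam1 and Cd55), and the median log2 ratio was 0.88 against 0.02 over all counted genes. Wnt4, a ligand that decidualization needs, had 210 against 41.4 CPM, and 127 against 44.8 CPM in the library labelled control. That control value came from 2 of 6 cells, and its log2 ratio turned from 1.19 to -0.0734 with a minimum of 5 UMIs for members. Hand2, a progesterone-responsive stromal factor, had 93.2 against 15.3 CPM, and 25.5 against 5.47 CPM from 2 UMIs. Against the Frzb, Ngfr and Nog class, 5 of 16 were higher and 2 lower, where all genes gave 3.84% and 4.94%. Against the Ptx3, Has2 and Cxcl5 class, where all genes gave 6.47% and 6.52%, 9 were higher and 2 lower, and the difference between these counts was not tested.

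Foxl2 and Rorb, a pair named after their values were seen, had similar patterns. Foxl2 stood at 257 against 31.7 CPM and, in the library labelled control, 408 against 16.6 CPM. Rorb, an orphan nuclear receptor, stood at 271 against 31.9 CPM, and at 408 against 10.6 CPM. Summed over cells, both were thus higher in members of both libraries by log2 ratios of 2.42 or more. Foxl2 was seen in 50% of the members of the library labelled control, and 25 of its 32 UMIs there came from 1 cell. The control members with Foxl2 UMIs were also those with the high interferon sums described below. In the 17 control cells of cluster 7, described below, Foxl2 was higher than outside, at 350 against 10.3 CPM.

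Receptors for steroid hormones did not move one way. Esr1, oestrogen receptor alpha, had 290 against 133 CPM, and 89.3 against 103 CPM in the library labelled control, so it was past 2-fold in the library labelled cKO, by a log2 ratio of 1.02, and had the other sign in the library labelled control. Pgr, the progesterone receptor, had 878 against 733 CPM, and 1071 against 475 CPM. Nr3c1, the glucocorticoid receptor, was lower, at 40.0 against 159 CPM, and at 51.0 against 179 CPM.

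In Wnt signalling 7 of 16 counted genes were higher (Wnt5a, Wnt4, Fzd2, Wnt16, Notum, Lef1 and Axin2) and 3 lower (Sfrp4, Sfrp1 and Fzd1), with a median of 0.81. Of 13 counted in the library labelled control, 2 were higher and 3 lower. Axin2, Lef1 and Notum are known as targets of beta-catenin, and Notum also inactivates Wnt ligands. Fzd2, a Wnt receptor, had 147 against 34.4 CPM, and 51.0 against 22.9 CPM. Sfrp4, a secreted Wnt antagonist, had 7.65 against 191 CPM, and 38.3 against 110 CPM from 3 UMIs, where the log2 ratio turned to 0.0301 with cells weighted equally. Planar cell polarity, the pathway of Prickle1, held 1 higher gene of 12 (Ptk7, a Wnt co-receptor, 95.7 against 23.2 CPM) and 1 lower (Dact1, 3.48 against 34.9 CPM), with a median of 0.02. Hedgehog signalling held 0 higher and 2 lower genes of 7 (Gas1 and Gli3).

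BMP and TGF-beta signalling held 1 higher gene of 23, the ligand Bmp7 (67.1 against 5.06 CPM, and 0 UMIs in members of the library labelled control), and 6 lower (Fst, Ltbp4, Id2, Bmper, Smad7 and Tgfbr3). Fst, the activin antagonist follistatin, had 40.7 against 522 CPM, but 332 against 391 CPM in the library labelled control. REST, a repressor that Prickle1 binds, and its corepressors held 0 higher and 0 lower genes of 7. Rest itself stood at 114 against 133 CPM.

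Collagens held more higher than lower genes in the library labelled cKO. Of 8 counted fibrillar collagens 4 were higher (Col3a1, Col1a1, Col5a1 and Col11a1) and 0 lower, with a median of 1.10. Col1a1 had 3698 CPM in members and 925 CPM in the others, and Col3a1 had 2515 and 488 CPM. Both stayed within 2-fold in the library labelled control, at 1530 against 1332 CPM for Col1a1 and 752 against 921 CPM for Col3a1, with log2 ratios of 0.20 and -0.28. In the 17 control cells of cluster 7, described below, both were lower than outside, at 384 against 1361 CPM and 469 against 933 CPM. Of 8 other collagens 5 were higher (Col6a2, Col6a3, Col6a6, Col7a1 and Col6a1) and 2 lower (Col14a1 and Col12a1), with a median of 1.33. Col6a3, a chain of the microfibrillar collagen VI, had 2507 against 836 CPM, and 1581 against 789 CPM.

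The remaining matrix lists were split. Of 20 basement membrane genes 4 were higher (Col18a1, Smoc2, Col4a3 and Smoc1) and 2 lower (Fbln1 and Lama4). Of 23 elastic fibre and crosslinking genes 6 were higher (Tnc, Plod1, Fn1, Emilin2, Tgm2 and Eln) and 4 lower (Efemp1, Lox, P4ha3 and Tnxb). Tnc, the matrix glycoprotein tenascin C, had 945 against 196 CPM, but 76.5 against 189 CPM in the 6 members of the library labelled control. In the 17 control cells of cluster 7, described below, it was higher than outside, at 786 against 171 CPM. Of 14 proteoglycans 3 were higher (Srgn, Sdc1 and Gpc1) and 4 lower (Aspn, Ogn, Gpc3 and Prelp). Of 10 matricellular proteins 1 was higher (Igfbp7) and 6 lower, among them Postn (20.5 against 335 CPM) and Thbs1 (644 against 3901 CPM), with a median of -1.48.

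Fatty acid and sterol synthesis held 11 higher genes of 26 and 0 lower, with a median of 0.92. They included Scd2, Idi1, Fdps and Hmgcs1. Idi1, an isomerase of the sterol pathway, had 178 against 39.4 CPM, and 38.3 against 11.1 CPM in the library labelled control from 3 UMIs. Against the Frzb, Ngfr and Nog class 7 of 26 were higher (3.84% of all genes), and against each of the other 2 classes 15 of 26 (6.47% and 5.87% of all genes). The library labelled control had 5 of 22 higher and 1 lower.

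Inflammatory, complement and growth factor lists lay mostly on the lower side. Of 8 counted complement genes 7 were lower and 0 higher, with a median of -1.63, and they included C3, Serping1, Cd55 and C4b. Of 16 chemokines and inflammatory genes 10 were lower and 2 higher (Cxcl14 and Ccl11). Of 29 growth factors 16 were lower, among them Il6, Lif, Csf1, Fgf2 and Vegfa, and 4 higher (Igfbp4, Sema3a, Igf1 and Pdgfrb). Of 29 proteases and inhibitors 10 were lower, including Mmp3 and Ctsl (245 against 1136 CPM), and 3 higher (Serpine2, Timp3 and Htra1). The complement list was mixed in the library labelled control, with 3 lower and 1 higher of 10, while 11 of 18 chemokine genes and 15 of 31 growth factors were lower.

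Immediate early genes, which tissue digestion is known to induce, were lower in part. Of 28 counted, 13 were lower, among them Nr4a1 (49.4 against 307 CPM), Fosb (107 against 487 CPM) and Dusp1 (130 against 553 CPM), and 1 was higher (Hspa1a, a heat shock protein). The library labelled control had 7 of 28 lower and 5 higher, and Nr4a2 stood the other way there, at 587 against 193 CPM from 46 UMIs. Nr4a2 was lower in the control cells of cluster 7, described below, with 5 UMIs in 17 cells (18.6 against 201 CPM outside). The digestion was long, and the part of this response in the lower inflammatory genes was not tested.

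Adhesion and general fibroblast genes gave smaller groups. Of 24 adhesion and surface genes 10 were lower (Pdpn, Vcam1, Cd44 and Ly6a among them) and 3 higher (Itga6, Cdh11 and Itgb3). Of 9 general fibroblast genes 5 were lower and 0 higher, including Dpt, dermatopontin, at 430 against 1323 CPM. Of 14 contractile genes 3 were lower (Tagln, Acta2 and Myh11) and 0 higher. The cell cycle list had 5 counted genes, 1 of them higher (Tubb5, a beta-tubulin). Ribosomal proteins held 0 higher and 0 lower of 25 and oxidative phosphorylation 2 higher and 0 lower of 27. The interferon response list had 8 counted genes, with 0 higher and 1 lower (Slfn5). Some genes stand in more than 1 list.

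The medians of the lists not yet given fell on both sides of the 0.02 over all counted genes. They were 0.64 for steroid hormone receptors, 0.63 for oxidative phosphorylation, 0.42 for elastic fibres, 0.21 for basement membrane, 0.21 for ribosomal proteins, 0.10 for Hedgehog signalling, 0.09 for interferon response and 0.05 for REST and corepressors. Below 0 lay proteoglycans (-0.17), cell cycle (-0.27), contractile genes (-0.42), adhesion (-0.43), BMP and TGF-beta signalling (-0.44) and proteases (-0.71). The lowest of these were immediate early genes (-0.97), chemokines (-1.25), growth factors (-1.26) and general fibroblast genes (-1.46). Counts in the library labelled control were 8 higher and 3 lower of 16 for endometrial stroma, 1 and 8 of 23 for BMP and TGF-beta signalling, 1 and 0 of 8 for fibrillar collagens, and 1 and 1 of 8 for other collagens. They were 9 and 4 of 21 for basement membrane, 6 and 5 of 23 for elastic fibres, 1 and 6 of 10 for matricellular proteins, 4 and 11 of 28 for proteases and 3 and 4 of 19 for adhesion. Over all 7705 genes counted in that library 9.58% were higher and 13% lower, which stands beside every control count of a list.

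**Figure D3:**
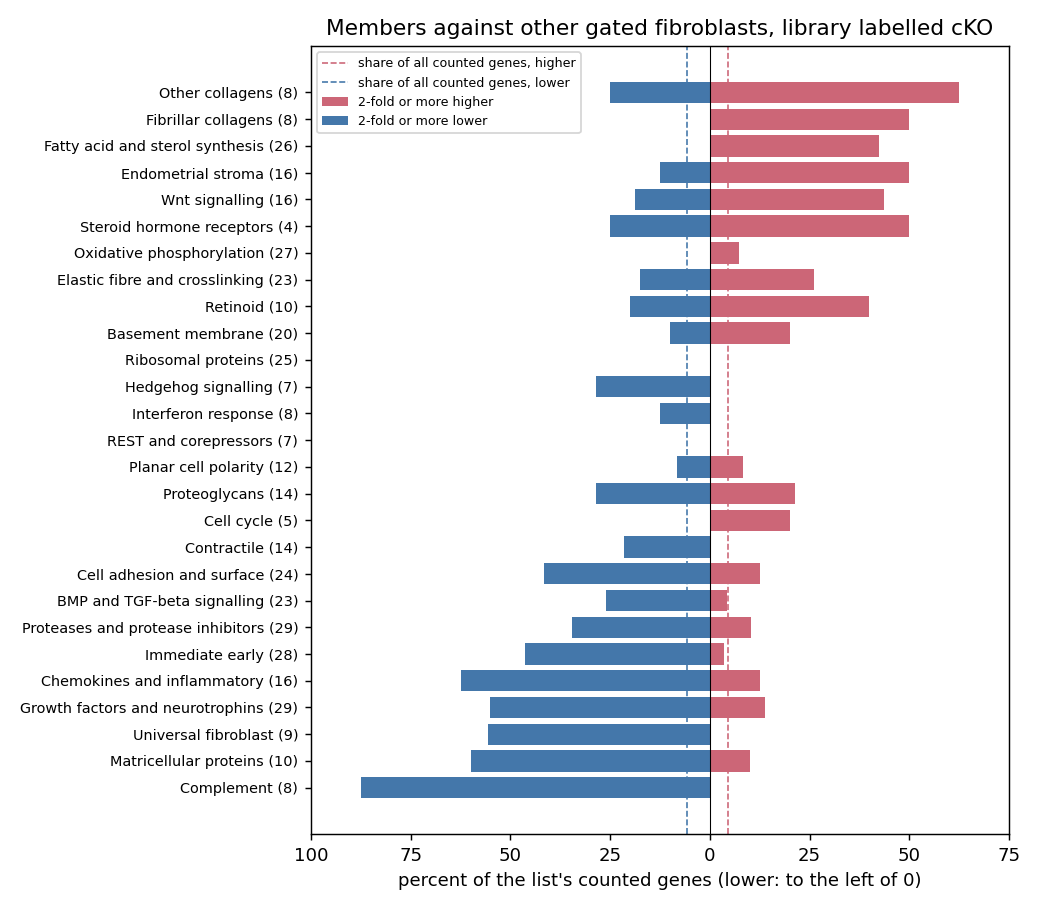
Percent of each list's counted genes (number in brackets) that were higher (red, right) or lower (blue, left) by 2-fold or more in the 134 members than in the other gated fibroblasts of the library labelled cKO. Dashed lines give the same shares over all 8044 counted genes, 4.54% and 5.84%. Lists are ordered by their median log2 ratio, with other collagens (5 of 8 higher) at the top and complement (7 of 8 lower) at the bottom.

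Clustering of the 2257 gated fibroblasts without the 16 genes of the rule put most members together. Of 13 clusters, cluster 7 held 95 of the 140 members (67.9%), cluster 12 held 27 and cluster 11 held 15. Cluster 7 had 151 cells, 134 from the library labelled cKO and 17 from the library labelled control, which is 9.82% and 1.90% (1.11% to 3.03%) of gated fibroblasts. In this cluster 91 of the 134 cells and 4 of the 17 cells were members. Its leading genes were Srgn, Crispld2, P2ry14, Wnt5a and Rorb. It held 61.3% of all Scube1 UMIs of the gated fibroblasts and 77.9% of all A2m UMIs. A UMI of either gene was seen in 90.3% of its cells of the library labelled cKO, against 11.5% of cells outside it. Those shares were 41.2% and 4.11% in the library labelled control, so 10 of its 17 cells there had neither gene. Cells of cluster 7 were also deeper, with medians of 19571 against 9016.5 UMIs outside (cKO) and 16709 against 8397 (control). These shares were not thinned, and the part of depth in them was not tested.

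The 3 clusters differed in what their members of the library labelled cKO expressed. The 91 in cluster 7 had 357 CPM of Scube1, 547 CPM of A2m, 306 CPM of Thy1 and 753 CPM of Aldh1a2. The 27 in cluster 12 had more Scube1 (791 CPM) and less A2m (166 CPM), with Thy1 at 31.3 CPM and Aldh1a2 at 1964 CPM. They also had more Scd2, at 2258 against 901 CPM. Cluster 12 was led by Aldh1a2, Atp8a1, Tmem119 and Scd2, and 36 of its 82 cells belonged to the Frzb, Ngfr and Nog class. Thy1 and A2m therefore marked cluster 7 more than cluster 12, and these values describe clusters made from the same cells.

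The 14 members in cluster 11 carried 7761 CPM of Hspa1a, against 25.04 CPM in cluster 7 and 9.38 CPM in cluster 12. Their Crispld2 was 99.4 CPM, against 1681 and 1079 CPM. Their Wnt5a was similar to that of cluster 7, at 549 against 477 CPM. Their A2m, a gene of the rule, was 1009 CPM, against 547 CPM in cluster 7 and 166 CPM in cluster 12. Cluster 11 as a whole was shallow, with a median of 4114 UMIs, but its 14 members had a median of 13605 UMIs. These 14 cells held 1484 Hspa1a UMIs and the 91 in cluster 7 held 59.

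**Figure D4:**
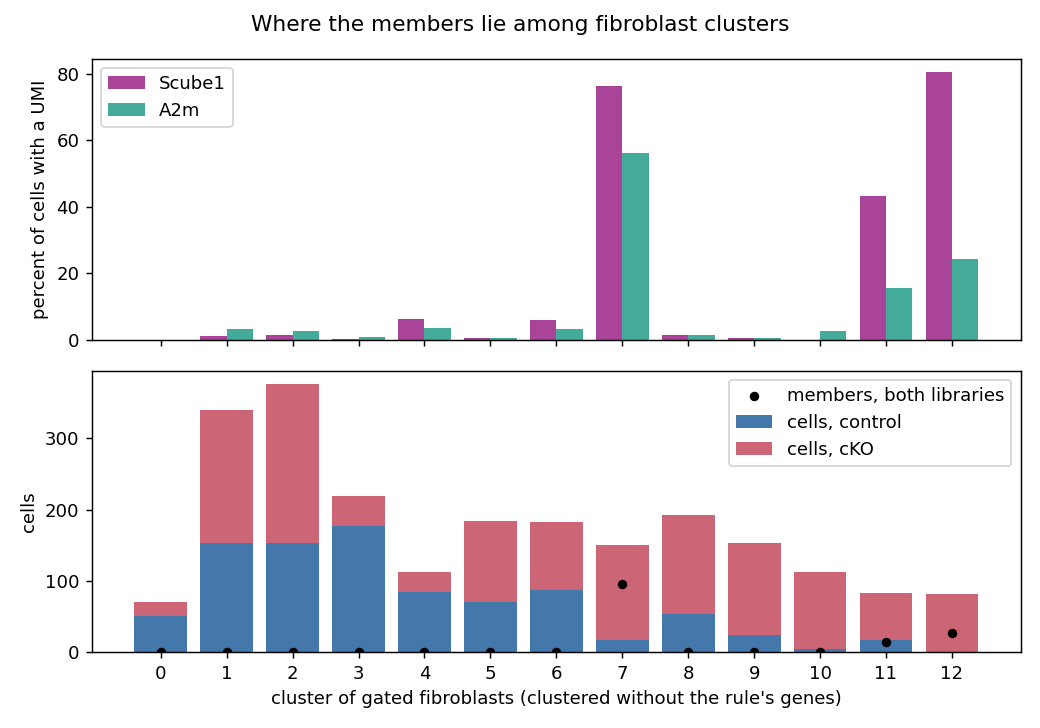
For each of 13 clusters of gated fibroblasts, made without the genes of the rule, the upper panel gives the percent of cells with a Scube1 or an A2m UMI and the lower panel the cells of each library (bars) and the members of both (points). Cluster 7 holds 95 members and cluster 12 holds 27. Scube1 is seen in 76.2% and 80.5% of their cells, and A2m in 56.3% and 24.4%.

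Members with mostly A2m and those with mostly Scube1 were set side by side, a division made after the data were seen. Among 107 members of the library labelled cKO with a sum of at least 6 UMIs, A2m gave at least 50% of the sum in 48 cells (A2m-rich) and under 10% in 30 (Scube1-rich). Their median depths were 19365.5 and 16169.5 UMIs, and 40 of the 48 and 16 of the 30 lay in cluster 7. Cluster 12 held 1 of the 48 and 14 of the 30, so the division also follows the clusters. Of 7928 genes counted, 89 differed by 2-fold or more (1.12%).

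Ctla2a, an inhibitor of cathepsin-like proteases, had 60.9 CPM in A2m-rich cells and 1463 CPM in Scube1-rich cells, and was seen in 31.3% and 63.3% of them. Gpx3, a secreted glutathione peroxidase, had 43.0 and 345 CPM. Prlr, the prolactin receptor, had 18.6 and 166 CPM, seen in 12.5% and 46.7% of cells. These genes were lower on the A2m-rich side by log2 ratios of -4.20 to -2.27, and with cells weighted equally by -3.40 to -2.58. Igfbp3, a further gene of that side, had 6.68 and 183 CPM, but 48.4% of its UMIs there came from 1 cell. Ctla2a also differed between the clusters, at 4864 CPM in the cKO members of cluster 12 and 25.9 CPM in those of cluster 7.

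On the other side, Ccl11, the eosinophil chemokine eotaxin, had 318 CPM in A2m-rich and 25.6 CPM in Scube1-rich cells, seen in 50% and 6.67%. Egr1, an immediate early factor, had 787 and 219 CPM, seen in 70.8% and 30%. Fos, another, had 237 and 33.5 CPM. Hspa1a stood highest of all, at 424 against 27.6 CPM, but 1 cell gave 79.3% of its UMIs on the A2m-rich side. These 4 genes were higher on the A2m-rich side, and 7 of its 48 cells lay in cluster 11. Ccl11 had 255 CPM in the cKO members of cluster 7 and 15.6 CPM in those of cluster 12. The part of the clusters in this division was not tested.

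Within the members, the library labelled cKO was also set against the library labelled control, where the 6 control cells set the precision. Of 7810 genes counted, 1009 were higher (12.9%) and 625 lower (8%), against 0.243% and 0.231% of 7803 in the other gated fibroblasts. The part of the low depth of the 6 control cells, 78430 UMIs, in the larger shares was not tested. In cluster 7, with 17 control cells and 268576 UMIs, the shares were 3.95% higher and 5.35% lower of 7871 genes.

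Interferon response genes were lower in the library labelled cKO as a group. Of 22 counted genes 21 were lower there and 0 higher. Cxcl10, a chemokine that interferon induces, stood at 4310 CPM in control members and 14.6 CPM in cKO members, and at 237 and 28.1 CPM in the other gated fibroblasts. Isg15, a ubiquitin-like protein, stood at 1109 and 16 CPM, and at 59.8 and 4.91 CPM in the others. Rsad2, the antiviral protein viperin, stood at 1250 and 0.348 CPM, and at 122 and 4.14 CPM in the others. Ifit1, Ifit3, Iigp1 and Rnf213 were among the 8 lowest as well, with log2 ratios of -5.90 to -4.99.

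The interferon RNA was not spread over all 6 control members. The 25 listed genes in the files summed to 28257, 28339 and 29425 CPM in 3 cells, and to 0, 233 and 334 CPM in the other 3. No member of the library labelled cKO passed 2784 CPM, and their median was 207 CPM. Of the library labelled control 28 of 887 other gated fibroblasts passed 5000 CPM, with a median of 282 CPM, so high cells were found outside the set too. In cluster 7, 11 of 17 control cells and 0 of 134 cKO cells passed 5000 CPM, and 23 of 24 counted genes were lower in the library labelled cKO. In the other gated fibroblasts 9 of 15 were lower. These counts have the same limit, since genes high only on the control side enter them. The interferon genes took part in making the clusters, and whether the difference is one of mice, of pools or of genotype cannot be told apart.

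**Figure D5:**
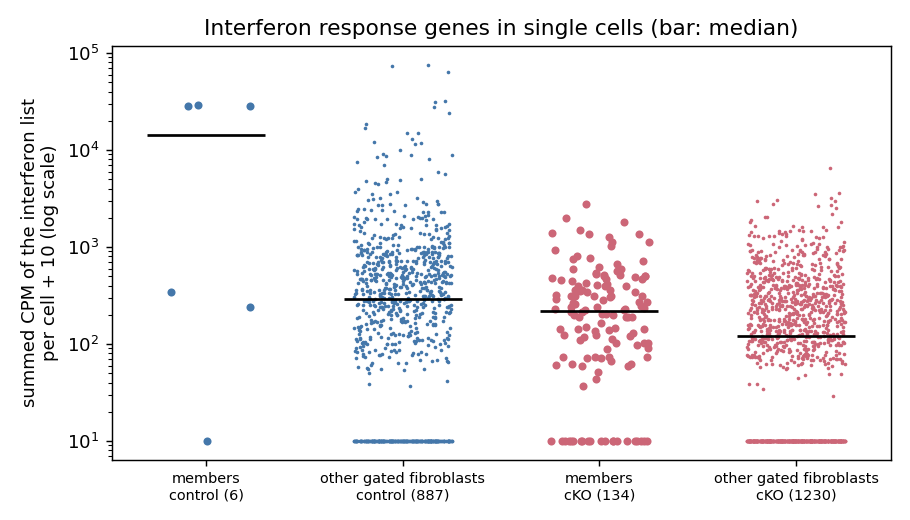
Summed CPM of 25 interferon response genes per cell plus 10 (log scale) in members and other gated fibroblasts of the libraries labelled control and cKO, with the number of cells in brackets. Each point is a cell and each bar the median. The control members fall into 3 cells at 28257 CPM or more and 3 at 334 CPM or less, and the highest cKO member lies at 2784 CPM.

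The highest ratios of the library labelled cKO over control in members were less steady. Cryab, a small heat shock protein, had 414 CPM in cKO members and 0 UMIs in control members, at least 10.8-fold higher at the floor of 3 UMIs, but in cluster 7 it was lower in the library labelled cKO (569 against 994 CPM). Inhba, the activin A subunit, had 313 against 12.7 CPM in members, and 340 against 1247 CPM in cluster 7. Both thus changed direction in cluster 7, a different set of cells, where 4 of the 17 control cells were members. Tnc had 945 against 76.5 CPM in members, and 1007 against 786 CPM in cluster 7.

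Igfbp5, Nrgn and Cyp26b1 kept their direction in that cluster. Igfbp5, a binding protein for insulin-like growth factors, had 310 against 12.7 CPM in members, and 219 against 37.2 CPM in cluster 7. Nrgn, the calmodulin-binding protein neurogranin, had 172 CPM against 0 UMIs in members, at least 4.48-fold higher, and 180 against 3.72 CPM in cluster 7. Cyp26b1 had 278 CPM against 0 UMIs in members, at least 7.27-fold higher, and 213 CPM against 0 UMIs in cluster 7. In the other gated fibroblasts the same 3 genes had log2 ratios of -0.12, -0.11 and 0.29. Mfap4 and Eln, a microfibril protein and elastin, had log2 ratios of 3.00 and 2.88 in members and of 0.56 and 0.96 in cluster 7.

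Il11, a cytokine of the interleukin 6 family, was among the lowest at 42.4 against 1976 CPM, but 148 of its 155 UMIs in control members came from 1 cell. In cluster 7 it stood at 81.5 against 89.4 CPM. Col6a4, named after its values were seen, stood at 1081 CPM in cKO members and 1173 CPM in control members, and at 1064 and 841 CPM in cluster 7. Ramp2 was close in the members (293 and 306 CPM) but higher in the library labelled cKO in cluster 7 (269 and 123 CPM, log2 ratio 1.02). Igfbp4 stood at 1192 and 1122 CPM in members and at 1106 and 629 CPM in cluster 7, and Igf1 at 765 and 816 CPM and at 672 and 1188 CPM. Fibrillar collagens were higher in the library labelled cKO for 4 of 8 genes in members and 4 of 8 in cluster 7, and for 0 of 7 in the other gated fibroblasts. Fatty acid and sterol synthesis genes were higher for 10 of 24 in members and 9 of 24 in cluster 7, and for 1 of 21 in the others. Over all counted genes 12.9% were higher in members, 3.95% in cluster 7 and 0.243% in the others. The difference between members and others in these counts was not tested.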

How the data were processed

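The authors deposited unfiltered UMI counts per gene and barcode for 2 libraries, made from single-cell 3-prime sequencing with 3 mice pooled per library, per the labels' protocols. Their tool was Cell Ranger; the file headers give version 4, the submitters' processing notes version 6.1.1 and the mm10 build. A barcode counted as a cell from 1000 UMIs and 500 genes upwards, with mitochondrial UMIs up to 20%. No doublets were removed. UMIs were summed per library and class and scaled to CPM. Genes with a mean of at least 10 CPM over both sides were counted, and the 16 genes of the rule were left out. Ratios had 20 CPM added and were checked on simulated data with known changes. Clustering (scanpy 1.11.5, igraph 0.11.9) used 2000 variable genes, 30 principal components, 15 neighbours and Leiden resolution 1.0. Free RNA was read from barcodes of fewer than 100 UMIs, and background shares from cells with at least 3 Ptprc UMIs. Intervals are exact Poisson, Clopper-Pearson or exact conditional, with scipy 1.17.1.

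With 1 library per group no test was made. Named genes were Prickle1, the 4 markers, the 15 highest and 15 lowest ratios of members over others in the library labelled cKO, the 8 highest and 8 lowest of cKO over control in members, and up to 4 of each list. Others were chosen after their values were seen, namely Foxl2, Rorb, Hand2, Col6a4, Igf1, Pgr, Des, the list genes named beyond those 4 and the genes of the A2m and Scube1 division. The members and lists were chosen with earlier results of these data known. Some genes of the lists are not reported here.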

Additional observations from a re-analysis of the deposited data

Results flagged for a closer look

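Has1 was flagged because its ratio of members over other fibroblasts went opposite ways in the libraries. The log2 ratio was -3.80 in the library labelled cKO and 0.90 in the library labelled control, a difference of -4.7 that was not tested. The control value rests on 36 UMIs, 35 of them in 2 cells. In cluster 7, with 17 control cells, both libraries had the same direction, at -3.22 (cKO) and -0.53 (control) against the cells outside it.

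Scube1 and A2m were also found outside the fibroblast gate, in cells that no comparison used. In the library labelled cKO 25 such cells had at least 3 UMIs of the pair, with 159 Scube1 and 172 A2m UMIs in all, against 3 cells in the library labelled control. Of the 25, 14 had fewer than 3 UMIs of Pdgfra, Dcn and Lum, 8 had a Ptprc UMI and 4 an Epcam UMI.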

How the results depend on the processing

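The share of members in the library labelled cKO was 7.99% with a minimum of 5 UMIs and 1.98% after thinning to 2000 UMIs, and 9.56% to 10.8% under the other alternatives. Genes past 2-fold in that library, 835 as reported, were 1488 with 5 CPM added and 444 with 50 CPM added. In the library labelled control, 1742 genes became 654 with 50 CPM added and 894 in cluster 7, an alternative chosen after seeing the data. For cKO over control in members, 1634 genes became 2464 with 5 CPM added, 531 with 50 CPM added (214 higher and 317 lower, where 1009 and 625 were reported) and 732 in cluster 7 (311 higher and 421 lower). In the library labelled control the log2 ratio of members over others turned to -0.0734 for Wnt4 and -0.14 for Col11a1 with a minimum of 5 UMIs, to 0.0301 for Sfrp4 with cells weighted equally and to 0.25 for Acta2 against an equal mean of the 3 other classes. In cluster 7 the log2 ratio of cKO over control turned to -0.78 for Cryab and -1.82 for Inhba. The causes were not tested. Leaving out the 3 deepest members, also chosen after seeing the data, gave 822 and 1631 genes. The 6 control members limit every value that uses them. No paired analysis was possible because each group has 1 library.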
